A study of Mus musculus with 6 samples.

Results

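The genes described here encode 8 surface proteins through which antigen-presenting cells instruct T cells: Cd80, Cd86, Cd40, Cd83, Cd274, Pdcd1lg2, Icosl and Tnfsf9. They were chosen by name, and every probe set (a group of short probes read out as 1 value) that lists only 1 of these genes was used, on all 6 arrays. This gave 15 probe sets for the 8 genes, among 18193 genes with such a probe set on the array. RNA of mouse macrophages was measured on 1 Affymetrix array per sample. There were 2 arrays of Trib1 knockout macrophages given lipopolysaccharide (LPS, part of the outer membrane of Gram-negative bacteria, detected by Toll-like receptor 4), numbered 1 and 2, and 2 arrays of wild-type macrophages of the Trib1 line given LPS, also numbered 1 and 2. The remaining arrays were 1 of wild-type macrophages given LPS and 1 of wild-type macrophages given medium, called the LPS pair, which the submitters used to define LPS-inducible genes. The source of the macrophages, the strain, sex and age of the mice, the LPS dose and the time are not given in the sources used here, nor is it stated that arrays of a group came from separate animals. The spread behind each p-value is therefore that of these samples alone and may be technical.

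A T cell that recognises antigen is activated fully only when a second signal is given beside it. CD80 and CD86 supply that signal through CD28 and are also bound by the inhibitory receptor CTLA-4. PD-L1 (Cd274) and PD-L2 (Pdcd1lg2) engage the inhibitory receptor PD-1, ICOS ligand (Icosl) engages ICOS, and 4-1BB ligand (Tnfsf9) engages 4-1BB. CD40 differs in being a receptor on the antigen-presenting cell, engaged by CD40 ligand on T cells, and CD83 is a maturation marker of dendritic cells that slows the loss of CD86 and MHC class II from the surface. Many of these genes are known to be raised in macrophages and dendritic cells by Toll-like receptor signals through NF-kB and by interferons. The product of Trib1 is a pseudokinase known for promoting the degradation of C/EBP alpha.

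All values are scaled intensities, with each array brought to the same trimmed mean, and a value under 29.9 was treated as background. The share of probe sets above this floor lay between 57.9% and 63.0% per array. All 6 macrophage markers (Adgre1, Csf1r, Cd68, Itgam, Lyz2 and Mertk) were above the floor on every array. The 2 Trib1 probe sets cannot check the genotype labels, because their position relative to the deleted part is not given: the brighter one read 88.1 and 20.9 on the arrays labelled knockout, 17.9 and 17.5 on wild-type arrays of the Trib1 line, 189.3 with LPS in the LPS pair and 383.5 in medium. The genotype directions below therefore rest on the labels. Each gene is described by its leading probe set, the brightest by its mean level on the 6 arrays. That leading probe set was above the floor on all 6 arrays for each of the 8 genes, as were 13 of the 15 probe sets. Precision is limited by there being so few arrays, and fewer cells of a type and less RNA per cell cannot be told apart in such bulk RNA.

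RefSeq promoter windows were at hand for 4 of the 8 genes (Cd80, Cd274, Pdcd1lg2 and Icosl). The windows of 3 are shown, since these genes responded differently: Cd80 had the largest ratio of LPS over medium on wild-type arrays of the Trib1 line, Cd274 stayed close to its medium level, and Pdcd1lg2, the next protein-coding gene to Cd274 on chromosome 19 with 0 others between them, differed from both. Each holds the 250 bases before the start used by RefSeq (build GRCm38.p6, plus strand), at chr16:38458683-38458932 for Cd80, chr19:29367188-29367437 for Cd274 and chr19:29410669-29410918 for Pdcd1lg2. Capitals mark matches to the motifs searched on both strands.
Cd80: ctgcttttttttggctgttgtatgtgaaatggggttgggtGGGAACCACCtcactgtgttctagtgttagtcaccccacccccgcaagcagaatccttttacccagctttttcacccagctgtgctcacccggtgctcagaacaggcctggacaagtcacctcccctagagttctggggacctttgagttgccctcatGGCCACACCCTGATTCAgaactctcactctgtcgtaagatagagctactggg
Cd274: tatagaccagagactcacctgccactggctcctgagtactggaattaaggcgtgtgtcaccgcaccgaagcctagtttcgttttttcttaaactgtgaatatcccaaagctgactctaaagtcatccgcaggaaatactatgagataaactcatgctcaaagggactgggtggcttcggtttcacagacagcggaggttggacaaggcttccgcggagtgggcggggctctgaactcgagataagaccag
Pdcd1lg2: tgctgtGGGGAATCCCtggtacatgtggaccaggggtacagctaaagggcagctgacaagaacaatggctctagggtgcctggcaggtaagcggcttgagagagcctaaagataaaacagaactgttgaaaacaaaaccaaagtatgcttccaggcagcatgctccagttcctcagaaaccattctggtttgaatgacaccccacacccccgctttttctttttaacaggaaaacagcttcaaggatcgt

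The motifs were an NF-kB form (GGG, any 5 bases, CC, in 45.8% of 32851 windows of the same length), an interferon response element (GAAA, any 2 bases, GAAA, in 2.98%), a STAT element (TTCNNNGAA, 7.02%), a C/EBP form (TTGCNNAA, 9.56%) and an AP-1 form (TGANTCA, 6.75%). The Cd80 window holds 2 NF-kB matches, GGGAACCACC and, on the opposite strand, GGCCACACCC, the second running directly into the AP-1 match TGATTCA. The Pdcd1lg2 window holds 1 NF-kB match, GGGGAATCCC. The Icosl window, not shown, holds 2 NF-kB matches, and the Cd274 window holds none of the motifs. The NF-kB form searched is loose, as its share of all windows shows, and a match describes these letters and does not locate a binding site.

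In wild-type macrophages of the LPS pair, LPS was accompanied by at least 4-fold more signal for 4 of the 8 genes: the costimulatory ligand genes Cd80, Icosl and Tnfsf9 and the receptor gene Cd40. Of the 8 genes, 0 were at least 4-fold lower. Over all 13700 genes above the floor on either array, 1.21% were at least 4-fold higher and 0.672% at least 4-fold lower. Over probe sets, 8 of the 14 measured were at least 4-fold higher, against 0.986% of all, and 0 were lower, against 0.598%. The median log2 ratio was 1.53 over the 8 genes and -0.11 over all of those genes. With 1 array per condition this is a rule of size without a test. With quantile normalization the count was 3 of 8, since Cd40 then had a log2 ratio of 1.79, short of 4-fold. On all 3 wild-type LPS arrays (the LPS array of the pair and both of the Trib1 line), only Cd80 among the 8 was at least 4-fold above medium, against 0.453% of genes, and 7 of the 8 lay above medium on all 3, against 23.9% of genes. The exception was Cd83, and Cd274 was counted with a ratio of 1.00 on wild-type array 1 of the line (10565 against 10560 in medium). The log2 ratio of Cd274 in the LPS pair, 0.19, was -0.12 with quantile normalization. Over probe sets these counts were 4 of 14, against 0.44%, and 11 of 14, against 24.3%. The Trib1 line has no medium array. On its arrays LPS cannot be told apart from a difference between that line and the LPS pair.

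**Figure D1:**
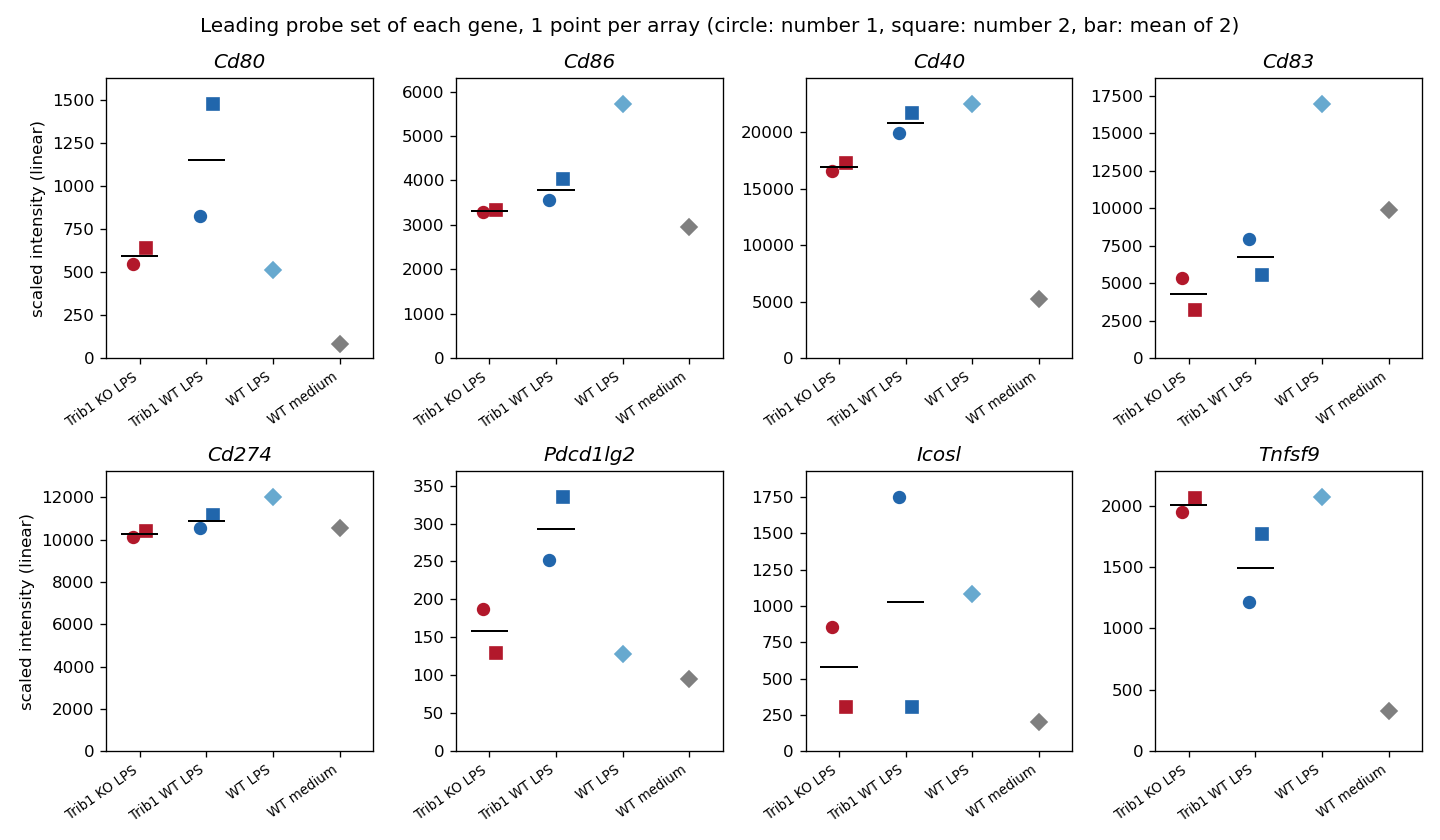
Scaled intensity (linear axis from 0) of the leading probe set of each gene, 1 point per array, with the mean of the 2 arrays of a genotype as a bar. Medium is lowest for Cd80, Cd86, Cd40, Pdcd1lg2, Icosl and Tnfsf9 and not for Cd83 or Cd274.

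Cd80 (1451950_a_at) read 548.9 and 642.1 on the knockout-labelled arrays, 824.3 and 1477 on the wild-type arrays of the Trib1 line, 513.4 with LPS in the LPS pair and 84.4 in medium. Every LPS array was above medium, by 6.08-fold at the least and 17.5-fold at the most. The LPS array of the pair was the lowest of the 5 and lay under both knockout-labelled arrays. A second probe set (1432826_a_at) read 273.1 and 235.1 on knockout-labelled arrays, 473.3 and 583.0 on wild-type arrays of the line, 270.6 with LPS and 64.6 in medium. Another (1427717_at) read 119.5 and 132.5 on knockout-labelled arrays, 293.3 and 244.7 on wild-type arrays of the line, 239.3 with LPS and 40.1 in medium. On all 3 probe sets medium was lowest and the wild-type arrays of the Trib1 line were highest. The fourth (1454372_at) was above the floor in medium alone (32.9), so it gives no measure of the response to LPS.

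Cd86, the other ligand of CD28, differed less between LPS and medium on its leading probe set (1449858_at). It read 3296 and 3343 on knockout-labelled arrays, 3557 and 4034 on wild-type arrays of the line, 5724 with LPS in the LPS pair and 2947 in medium. The LPS array of the pair was 1.94-fold above medium, and the 4 arrays of the Trib1 line lay between 1.12-fold and 1.37-fold above it. The second probe set (1420404_at) differed in order: its medium value of 1581 lay above all 4 arrays of the Trib1 line (1051 and 1076 labelled knockout, 1295 and 1430 wild type) and under the LPS array of the pair (1879). The 2 probe sets of Cd86 thus disagree on whether LPS arrays of the Trib1 line lay above or below medium.

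Cd40 (1460415_a_at) read 16511 and 17242 on knockout-labelled arrays, 19877 and 21648 on wild-type arrays of the line, 22488 with LPS in the LPS pair and 5224 in medium. The 3 wild-type LPS arrays lay close together, at 21338 ± 1333 (SD, n = 3), and the 5 LPS arrays were between 3.16-fold and 4.30-fold above medium. Between 17 and 78 probe sets were brighter than this one on an LPS array, so it lay near the top of the range. The probe set 1439221_s_at, which was dimmer in medium (2573), gave a ratio of 5.77 for the LPS pair, and 1449473_s_at gave 4.19. All 3 probe sets placed the 5 LPS arrays above medium.

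Cd83 differed from the other leading probe sets in lying under medium on the wild-type arrays of the Trib1 line. Its probe set (1416111_at) read 5338 and 3181 on knockout-labelled arrays, 7935 and 5575 on wild-type arrays of the line, 16966 with LPS in the LPS pair and 9879 in medium. Within the LPS pair the LPS array was 1.72-fold above medium, while all 4 LPS arrays of the Trib1 line lay under medium, at 0.32 to 0.80 of its level. The second Cd86 probe set had the same order relative to medium. Both knockout-labelled arrays also lay under medium for Cd274, by little. The 5 B cell markers on the array summed to 298.0 and 401.1 on knockout-labelled arrays, 496.3 and 604.0 on wild-type arrays of the line, 2325 with LPS in the pair and 1291 in medium. Both Cd83 and this sum were thus highest on the LPS pair, with the LPS array above the medium array. B cells are also known to express Cd83 and Cd86, and the part of this in either result was not tested.

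The inhibitory ligand gene Cd274 was the steadiest of the 8. Its probe set (1419714_at) read 10147 and 10394 on knockout-labelled arrays, 10565 and 11187 on wild-type arrays of the line, 12029 with LPS in the LPS pair and 10560 in medium. The highest array was 1.19-fold above the lowest, and medium lay inside the range of the LPS arrays. Between 259 and 309 probe sets were brighter than it on each array. Ifng, the cytokine best known to raise Cd274, read 106.9 and 90.9 on knockout-labelled arrays, 126.4 and 412.4 on wild-type arrays of the line, 903.9 with LPS in the LPS pair and 2.55 in medium, under the floor. Within the LPS pair it was at least 30.2-fold higher with LPS, beside 1.14-fold for Cd274.

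Pdcd1lg2, its neighbour, lay above the floor on every array. Its probe set (1450290_at) read 187.5 and 130.0 on knockout-labelled arrays, 251.4 and 335.2 on wild-type arrays of the line, 128.1 with LPS in the LPS pair and 95.6 in medium. The wild-type arrays of the line were 2.63-fold and 3.51-fold above medium, the LPS array of the pair 1.34-fold. The 3 wild-type LPS arrays therefore did not agree on the size of the ratio, and none of them reached 4-fold.

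Icosl followed the array number more than the group. Its leading probe set (1419212_at) read 856.7 and 303.7 on knockout-labelled arrays 1 and 2, 1752 and 305.6 on wild-type arrays 1 and 2 of the line, 1083 with LPS in the LPS pair and 202.5 in medium. Array 1 was 2.82-fold above array 2 among those labelled knockout and 5.73-fold above it among the wild-type ones. Medium was lowest, with the wild-type LPS arrays at 5.35-fold, 8.65-fold and 1.51-fold of it. The second probe set (1426087_at) lay between 18.3 and 41.5 on the 6 arrays, at or near the floor.

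Tnfsf9 (1422924_at) read 1946 and 2063 on knockout-labelled arrays, 1218 and 1765 on wild-type arrays of the line, 2071 with LPS in the LPS pair and 328.2 in medium. The 5 LPS arrays lay between 3.71-fold and 6.31-fold above medium, with the lowest ratio on wild-type array 1 of the line. It was the 1 gene of the 8 in which both knockout-labelled arrays lay above both wild-type arrays of the line.

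**Figure D2:**
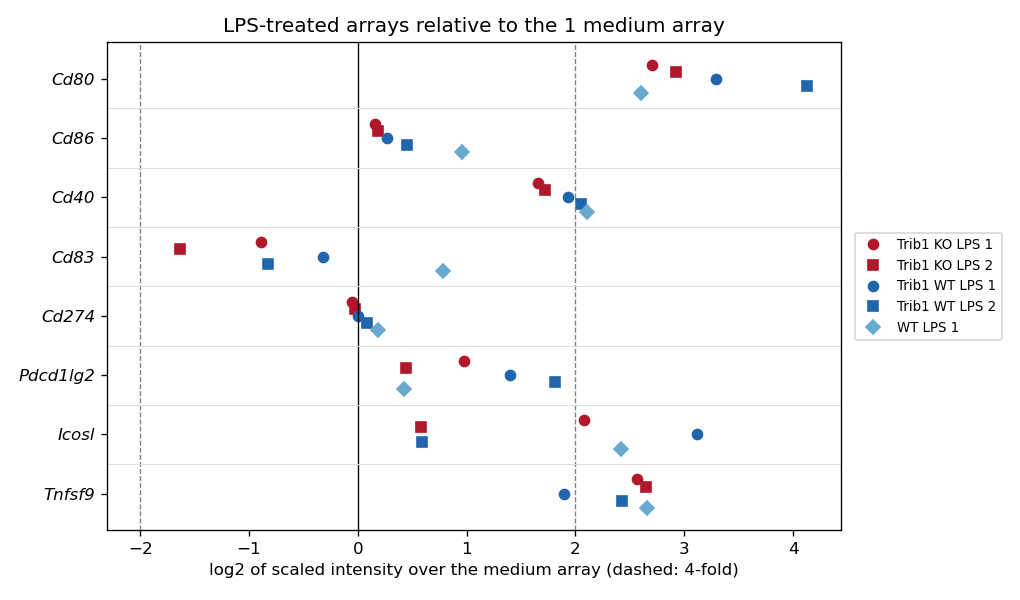
Log2 of scaled intensity on each LPS array over the medium array (x axis) for the leading probe set of each gene, with dashed lines at 4-fold. Cd80 passes 4-fold on all 5 arrays, Cd274 lies near 0 on all 5, Cd83 lies below 0 on the 4 arrays of the Trib1 line, and Icosl splits by array number.

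A fit of the 3 wild-type LPS arrays against the medium array adds a measure of spread, under the assumption that medium, a single array, varies as LPS arrays do. Of the 3, 2 were of the Trib1 line. For them LPS cannot be told apart from a difference between that line and the LPS pair. The log2 difference of LPS minus medium was 3.34 for Cd80 (SE 0.70), 2.33 for Tnfsf9 (SE 0.37) and 2.03 for Cd40 (SE 0.22). Their adjusted p-values were 0.380, 0.280 and 0.206 (limma, Benjamini-Hochberg over all probe sets tested, n = 3 against 1). Limma called 0 of 33134 probe sets higher (0.0%) and 0 lower (0.0%), and 1028 higher and 2029 lower at an unadjusted p under 0.05. Among the 8 genes 3 were higher at that unadjusted level, Cd80, Cd40 and Tnfsf9, and 0 were lower, against 3.5% and 6.08% of genes tested. Of their 15 probe sets 7 were higher and 0 lower at that level, against 3.1% and 6.12% of all. Replacing the floor by an offset of 16 let all 3 pass, with adjusted p-values of 0.0332, 0.0132 and 0.0331 for Cd80, Cd40 and Tnfsf9 (limma). Of the probe sets tested, 850 sat at the floor on all 3 LPS arrays and so had no spread. This fit and the ratios of the LPS pair share the medium array.

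The remaining 5 genes had intervals that included no change in that fit, wide for Icosl, Pdcd1lg2 and Cd83 and narrower for Cd86 and Cd274. The 95% interval of the fold of LPS over medium ran from 0.346 to 49.0 for Icosl, from 0.558 to 9.58 for Pdcd1lg2 and from 0.187 to 4.53 for Cd83. For Cd86 it ran from 0.709 to 3.07, and for Cd274 from 0.694 to 1.63. A 4-fold change thus lay inside the interval for Icosl, Pdcd1lg2 and Cd83, and outside it for Cd86 and Cd274 on their leading probe sets.

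Between genotypes after LPS, 7 of the 8 genes had a lower mean log2 level on the knockout-labelled arrays, by at most 1.86-fold on a leading probe set, and limma called 0 of them. Both knockout-labelled arrays lay below both wild-type arrays of the Trib1 line for 6 of the 8 genes, Cd80, Cd86, Cd40, Cd83, Cd274 and Pdcd1lg2, against 15.7% of genes tested. They lay above for 1, Tnfsf9, against 16.9% of genes, and the groups overlapped for Icosl. With the values as deposited the count below was 4 of 8, since Cd83 and Cd274 then overlapped. The median log2 difference was -0.41 over the 8 genes and 0.01 over all genes tested. Over probe sets, 14 of the 15 passed the filter on low values, and 11 of those 14 lay below and 2 above without overlap, against 16.3% and 15.4% of all probe sets tested.

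Cd80 averaged 595.5 on the knockout-labelled arrays and 1151 on the wild-type arrays of the line, a log2 difference of -0.89 (SE 0.31, n = 2 each; limma adjusted p = 0.959). Its other measured probe sets gave -1.05 (SE 0.24) and -1.09 (SE 0.29), and on all 3 the 95% interval lay below 0 before adjustment for the number of probe sets. The adjusted p of these probe sets was 0.872 and 0.899 (limma, Benjamini-Hochberg), so the difference did not pass. Pdcd1lg2 averaged 158.8 on knockout-labelled arrays and 293.3 on wild-type arrays of the line, a log2 difference of -0.89 (SE 0.32; limma adjusted p = 0.964). These were the 2 genes of the 8 with an unadjusted p under 0.05, both lower, against 2.76% of genes tested, and 0 were higher, against 2.77%. Over probe sets 4 of 14 were lower, against 2.71%, and 0 higher, against 2.28%.

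The wild-type array given LPS in the LPS pair, not used in that fit, lay on the other side for both. It read 513.4 for Cd80 and 128.1 for Pdcd1lg2, under both knockout-labelled arrays. When it was added to the wild-type arrays, the log2 differences were -0.53 for Cd80 (SE 0.41) and -0.50 for Pdcd1lg2 (SE 0.45), with an adjusted p = 0.999 for both (limma). It moved Cd83 and Cd86 the other way, to log2 differences of -1.14 (SE 0.47) and -0.39 (SE 0.24), also with an adjusted p = 0.999 (limma). For 4 of the 8 genes, Cd86, Cd40, Cd83 and Cd274, both knockout-labelled arrays lay below all 3 wild-type LPS arrays, against 8.47% of genes tested, and for 0 they lay above, against 11.7%. For Tnfsf9 the LPS array of the pair (2071) lay just above both knockout-labelled arrays, so the separation seen within the Trib1 line did not extend to it.

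Among the others, Cd83 averaged 4259 on knockout-labelled arrays and 6755 on wild-type arrays of the line (log2 difference -0.69, SE 0.31), and Cd40 averaged 16876 on knockout-labelled and 20763 on wild-type arrays (-0.30, SE 0.17). Cd86 averaged 3319 on knockout-labelled arrays and 3795 on wild-type arrays (-0.19, SE 0.16), and Cd274 averaged 10270.4 on knockout-labelled and 10876 on wild-type arrays (-0.08, SE 0.16). Tnfsf9 averaged 2005 on knockout-labelled arrays and 1492 on wild-type arrays (0.45, SE 0.23). Icosl averaged 580.2 on knockout-labelled and 1029 on wild-type arrays, with a log2 difference of -0.52 and an SE of 0.89, larger than the difference. All of these had an adjusted p = 0.999 (limma, n = 2 each). Over all 29078 probe sets limma called 0 higher (0.0%) and 0 lower (0.0%), with 663 higher and 788 lower at an unadjusted p under 0.05. With 2 arrays in each genotype, the smallest two-sided p of an exact permutation test would be 0.333.

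The intervals set what size of difference these arrays leave possible. For Cd274 the 95% interval of the knockout over wild-type fold ran from 0.720 to 1.24, for Cd86 from 0.662 to 1.16 and for Cd40 from 0.612 to 1.08, all on the leading probe sets, so a 2-fold difference in either direction lay outside these 3 intervals. The Cd40 probe set 1439221_s_at had an interval of 0.485 to 1.06, which holds a level lower by 2-fold. For Tnfsf9 it ran from 0.925 to 2.02. For Icosl it ran from 0.151 to 3.21 in this fit, which takes no account of the array numbers. Knockout minus wild type for Icosl was -1.03 on the log2 scale between the arrays numbered 1 and -0.0093 between those numbered 2.

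**Figure D3:**
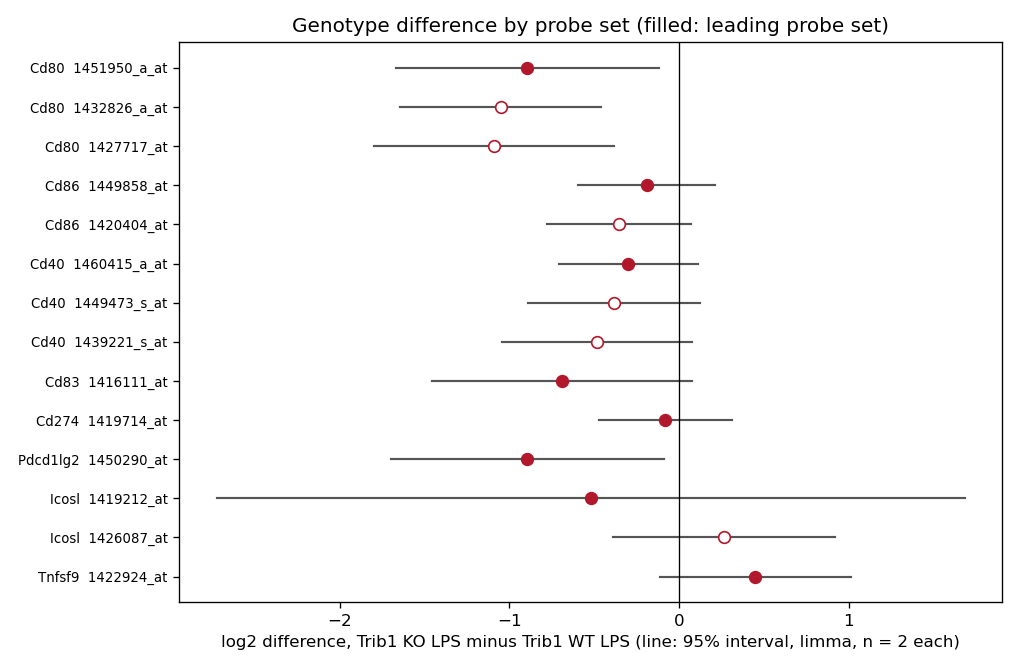
Log2 difference of knockout-labelled minus wild-type arrays of the Trib1 line (x axis) for the 14 probe sets tested, with 95% intervals from limma (n = 2 each). The 3 Cd80 probe sets and Pdcd1lg2 have intervals below 0 before adjustment, and Tnfsf9 and the dim Icosl probe set lie above 0.

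Both knockout-labelled arrays lay above medium for 6 of the 8 genes, Cd80, Cd86, Cd40, Pdcd1lg2, Icosl and Tnfsf9, against 38.3% of 14768 genes above the floor on any of these arrays. Cd80 was 6.50-fold and 7.61-fold above medium and Tnfsf9 5.93-fold and 6.29-fold. Cd40 was 3.16-fold and 3.30-fold above it, short of 4-fold, beside 3.80-fold and 4.14-fold on the wild-type arrays of the line. These ratios share the medium array with those of the wild-type arrays. That array is of the LPS pair, so LPS cannot be told apart here from a difference between the Trib1 line and the pair.

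Markers of other cell types moved with some of these differences. Of the 6 macrophage markers, 3 were higher without overlap on knockout-labelled arrays, Adgre1, Cd68 and Itgam, against 16.9% of genes tested. Mertk was the 1 lower without overlap, against 15.7%. Itgam had a log2 difference of 0.64 (SE 0.16; limma adjusted p = 0.899). Itgax, an integrin of dendritic cells that macrophages also express, read 1244 and 2233 on knockout-labelled arrays, 3031 and 4055 on wild-type arrays of the line, 1414 with LPS in the LPS pair and 1057 in medium. Both wild-type arrays of the line were highest and medium was lowest, as for Cd80. The 7 dendritic cell markers on the array summed to 1705 and 2691 on knockout-labelled arrays, 3442 and 4787 on wild-type arrays of the line, 2043 with LPS in the pair and 1323 in medium, with Itgax as most of the sum. Ccr7, a chemokine receptor of migrating dendritic cells, had another order. It read 169.8 and 238.8 on knockout-labelled arrays, 212.6 and 364.5 on wild-type arrays of the line, 381.4 with LPS in the pair and 69.7 in medium, so the genotypes overlapped. Of the 7 markers, 2 were lower without overlap on knockout-labelled arrays and 0 were higher, against 15.7% and 16.9% of genes tested. These 2 were Itgax (log2 difference -1.07, SE 0.32) and Cd209a (-0.50, SE 0.37), and Cd209a had the same order as Itgax. Zbtb46 lay between 24.2 and 124.0 and Flt3 between 13.8 and 59.6 on the 6 arrays, close to the floor. The genotypes overlapped for Zbtb46 (0.18, SE 0.69), Flt3 (0.04, SE 0.49), Xcr1 (0.00062, SE 0.42) and Dpp4 (-0.11, SE 0.33). The order of Itgax was thus not shared by most of the list. The B cell sum, given above for Cd83, was also lower on both knockout-labelled arrays than on both wild-type arrays of the line. Of its markers, 4 of the 4 tested were lower without overlap, against 15.7% of genes tested. Ebf1, the other marker of the sum, was above the floor on 1 array only and was not tested. It read 45.7 and 29.1 on knockout-labelled arrays, higher than the 22.8 and 20.2 on wild-type arrays of the line. The 5 mast cell markers summed to 193.0 and 209.5 on knockout-labelled arrays, against 521.9 and 736.4 on wild-type arrays of the line. In the LPS pair they summed to 907.9 with LPS and 757.1 in medium, so medium was not lowest, unlike for Cd80, Cd40 and Pdcd1lg2. Of the 4 mast cell markers tested, 3 were lower without overlap on knockout-labelled arrays, against 15.7% of genes tested, and Kit overlapped. The part of these cells in the differences of Cd80, Cd86, Cd40, Cd83 and Pdcd1lg2 was not tested.

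**Figure D4:**
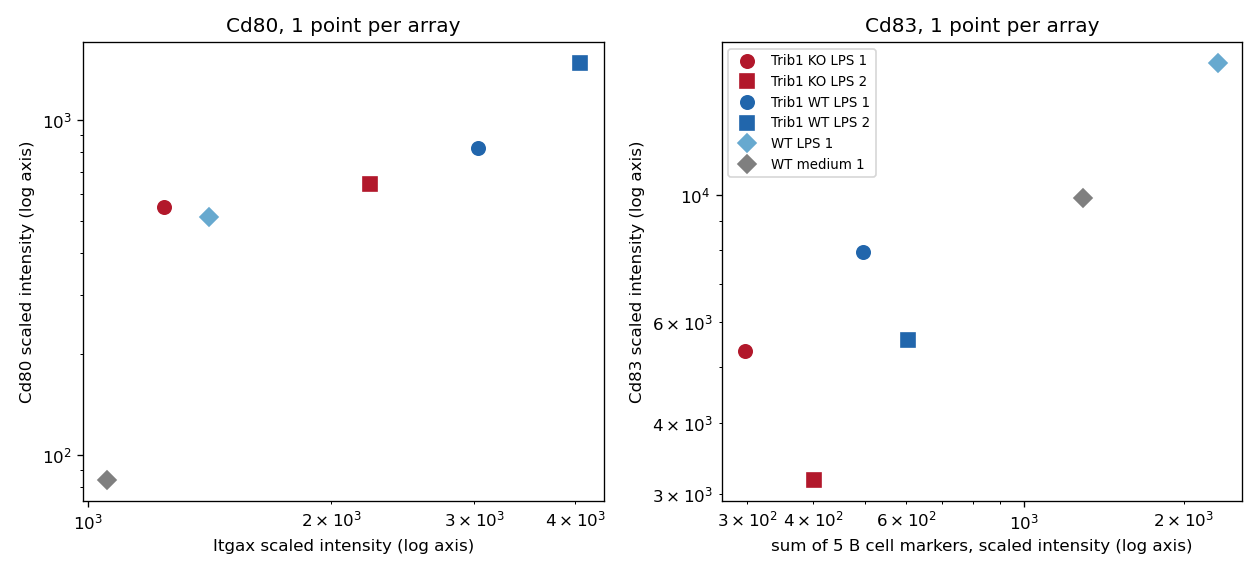
Left, Cd80 against Itgax; right, Cd83 against the sum of 5 B cell markers; scaled intensity on log axes, 1 point per array. Medium is lowest and wild-type array 2 of the Trib1 line is highest for both Cd80 and Itgax, while the LPS pair is highest for both Cd83 and the B cell sum.

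The genes for the T cell partners of these proteins, receptors and CD40 ligand, were dim. Of Cd28, Ctla4, Icos, Pdcd1, Tnfrsf9 and Cd40lg, 6 of 6 could be measured on at least 1 array of the LPS pair, 0 changed 4-fold, and their log2 ratio of LPS over medium had a median of -0.09. The highest value of the list was 114.6, for Ctla4 on wild-type array 2 of the line, and Ctla4 was above the floor on all 6 arrays. Of the 5 tested between genotypes 0 passed, with Ctla4 (log2 difference -0.87, SE 0.48) and Cd40lg (0.45, SE 0.37) first by p.

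Of 24 other costimulatory, inhibitory and adhesion genes, 22 had a probe set of their own and 17 exceeded the floor in the LPS pair. Of these 17, 3 were at least 4-fold higher, against 1.21% of genes, and 2 at least 4-fold lower, against 0.672%. Their median log2 ratio was 0.41. Slamf1, a self-binding receptor shared by T cells and macrophages, reached 1489 with LPS against 96.8 in medium (15.4-fold), and Cd200, whose receptor restrains myeloid cells, 2456 with LPS against 268.6 in medium (9.14-fold). Both also passed 4-fold on all 3 wild-type LPS arrays. Tnfsf4, which encodes OX40 ligand, was 4.67-fold above medium in the LPS pair and passed 4-fold on 2 of the 3 wild-type LPS arrays. Cd200r1, the receptor for CD200, measured 471.9 with LPS against 2317 in medium (4.91-fold lower) and Havcr2, which encodes the checkpoint receptor TIM-3, 31.9 with LPS against 148.0 in medium (4.64-fold lower), both at least 4-fold lower on all 3 wild-type LPS arrays. Cd200 and its receptor gene thus lay on opposite sides of medium. Havcr2 read 29.6 and 11.9 on the wild-type arrays of the line, under the floor of 29.9, so the floor sets its ratios there. Between genotypes 18 were tested and 0 passed; Nectin2, which encodes a ligand of TIGIT and CD226, had the smallest p, with 223.4 and 168.0 on knockout-labelled arrays and 544.7 and 598.6 on wild-type arrays of the line (log2 difference -1.56, SE 0.25; limma adjusted p = 0.766). Its level with LPS in the LPS pair was 190.5, within the knockout-labelled range. Vsir, which encodes the inhibitory ligand VISTA, came next (-0.75, SE 0.30).

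In the list of CD40 and NF-kB signalling genes, 15 of 18 were measured, with a median log2 ratio of 0.62. Of these, 2 were at least 4-fold higher with LPS, against 1.21% of genes. They were Traf1, an adaptor of CD40 and 4-1BB (12.5-fold), and Nfkb2, a subunit of the pathway that CD40 engages (5.22-fold). Traf1 passed 4-fold on all 3 wild-type LPS arrays and Nfkb2 on 1 of the 3. Of 15 genes tested between genotypes 0 passed. Birc2, a ubiquitin ligase of that pathway, had the smallest p (log2 difference -0.72, SE 0.19; limma adjusted p = 0.899), and Traf5 came second (0.58, SE 0.46). Among interferon gamma, JAK-STAT and IRF genes 14 of 15 were measured, with a median log2 ratio of 0.38. Ifng alone was at least 4-fold higher, against 1.21% of genes. Of 14 tested between genotypes 0 passed, with Stat2 (-0.53, SE 0.19) and Ifngr1 (0.48, SE 0.22) first by p.

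Of 6 genes that act on the turnover of these proteins at the cell surface, 0 changed 4-fold with LPS (median log2 ratio -0.17). Marchf1, which encodes a ubiquitin ligase that removes CD86 from the surface, read 1103 and 741.1 on knockout-labelled arrays, 385.8 and 421.5 on wild-type arrays of the line, 387.3 with LPS in the LPS pair and 616.0 in medium. Both knockout-labelled arrays lay above all 4 others, and the log2 difference between genotypes was 1.16 (SE 0.26; limma adjusted p = 0.872), which did not pass. Cmtm6, which encodes a protein that keeps PD-L1 from degradation, came second (-0.34, SE 0.34).

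Some genes followed the members closely over the 6 arrays. Among leading probe sets that varied at least 2-fold, 6878 or 6879 per member, the highest Pearson correlations of log2 intensity with Cd40 were those of Tmem39a (0.998), Il12b (0.996) and Lancl2 (0.994). For Tnfsf9 they were those of Cxcl1 (0.996), Il1a (0.995) and Sipa1l1 (0.994), which include a neutrophil chemoattractant and an inflammatory cytokine. For Cd80 they were those of 2500002B13Rik (0.997), Zc3hav1 (0.994) and Med21 (0.994). For these 3 members and the 9 genes next to them, the single medium array was the lowest. For Icosl they were those of Marcks (0.986), Rin3 (0.970) and Exd2 (0.967), and for Cd83 those of Tnfrsf11a (0.985), Cc2d1b (0.983) and Dicer1 (0.977). For Cd86 they were those of Appl1 (0.985), Timp1 (0.984) and Gem (0.973), for Pdcd1lg2 those of Gm11567 (0.985), Actl6b (0.981) and Nodal (0.978), and for Cd274 those of Gm8369 (0.986), 1700085C21Rik (0.964) and Tff3 (0.964). Cd86 and Cd274 themselves varied less than 2-fold, and the genes next to Cd274 and Pdcd1lg2 were dim. With 6 arrays and this many genes, correlations of this height describe these arrays only.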

How the data were processed

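RNA of 6 macrophage samples was measured on 1-colour Affymetrix arrays. The deposited values are linear probe set intensity values, made with MAS5 per the submitters' processing notes. The version and scaling target are not given in the sources used here, and the trimmed mean, which drops 2% of values at each end, differed: 500.004 for both LPS-pair arrays, 95.5 to 106.6 for the Trib1 line. Each array was rescaled to their mean, 234. Of 45101 probe sets 64 controls were left out. Genes came from the platform annotation, with 34945 probe sets listing 1 symbol, 932 several and 9160 none, updated by gene identifier for 34741. Genes of the lists without a probe set of their own were not analysed here. Values under the pooled 40th percentile (29.9) were set to it before log2.

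LPS over medium, with 1 array each, was judged by a ratio of at least 4. The genotypes, and the 3 wild-type LPS arrays against medium, were set against each other by limma 3.58.1 under R 4.3.3 (lmFit, eBayes with a trend, two-sided, Benjamini-Hochberg adjustment, threshold 0.05; residual degrees of freedom 2, prior 3.68 and 1.29). A probe set was tested if it exceeded the floor on 2 or more of the 4 arrays (1 or more for LPS). Both fits were tested on simulated data, with known changes added to independent noise. These data had no floor and no difference tied to array numbers, so the test does not cover either.

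The members and lists were chosen with earlier results of these data known. Named were all members, then from each pathway list up to 4 genes past the LPS rule and those past the genotype test, or otherwise the 2 of smallest p, and the 3 genes most correlated with each member. Alternatives were other scalings, floors, filters and priors, a block, arrays left out or added, and fold rules of 2 and 8. Python 3.11.15, numpy 2.4.6, pandas 2.3.3 and matplotlib 3.10.9 were used.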

Additional observations from a re-analysis of the deposited data

How the results depend on the processing

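Without a block the genotype comparison called 0 probe sets. With the number of the labels as a replicate block it called 85 higher and 31 lower, of which 0 belonged to the 8 genes, and the smallest adjusted p among them (limma) was 0.0868, for Cd83. The titles give both genotypes the numbers 1 and 2 and do not say what a number marks. Under the block the SE of the Icosl difference (-0.52) was 0.25 in place of 0.89, with an adjusted p of 0.515 (limma). Differences between arrays 1 and 2 of the knockout-labelled and of the wild-type group correlated at 0.35 across probe sets. Leaving out each array in turn gave 5 to 36 higher and 0 to 32 lower, with 0 of the 8 genes' probe sets called. Icosl ranged over -1.78 to 0.74 on the log2 scale and changed sign without knockout-labelled array 2 (0.23) and without wild-type array 1 (0.74). For the 3 LPS arrays against medium, where 0 were called, an offset of 16 gave 156 higher and 44 lower, 6 of them probe sets of Cd80, Cd40 and Tnfsf9. No filter gave 34 higher and 925 lower, 1 of them the dim Cd80 probe set, by construction of the floor, which leaves such probe sets no spread. A filter of 2 arrays, added after seeing the data, gave 45 and 3. In that comparison Cd274 changed sign with quantile normalization (-0.041) and Cd83 without wild-type array 2 (0.23, in a range of -0.57 to 0.23). As deposited, these arrays differ in scale, so that alternative was not run there. By size, where 287 were higher and 174 lower, the 25th percentile as floor gave 501 and 465, and the 60th gave 85 lower. A rule of 2-fold gave 1461 and 1832. A rule of 8-fold gave 82 and 17, with 0 of the 8 genes. Wild-type array 1 of the line in place of the LPS array gave 370 lower and 2 of the 8 genes higher, array 2 gave 447 higher and 489 lower. Cause was not tested except where stated. The second Icosl probe set lay at the floor, which limits what it shows.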

Other observations

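Within the set, the leading probe sets of Cd80 and Cd40 and of Cd40 and Tnfsf9 had the highest Pearson correlations of log2 intensity over the 6 arrays, both 0.93, followed by Cd86 and Cd274 (0.92). Cd80 and its fellow CD28 ligand gene Cd86 stood at 0.40, and the neighbouring genes Cd274 and Pdcd1lg2 at 0.01. Cd80 and Cd83 stood lowest, at -0.36. These are descriptions of 6 arrays that include 1 in medium, and no test was made.

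Other marker lists gave these sums of scaled intensity. The 4 T and NK cell markers on the array summed to 107.5 and 115.9 on knockout-labelled arrays, 90.2 and 107.6 on wild-type arrays of the Trib1 line, 207.8 with LPS in the LPS pair and 97.5 in medium. The 5 neutrophil markers summed to 649.3 and 314.5 on knockout-labelled arrays and to between 240.3 and 321.6 on the other 4. On knockout-labelled array 1 most of the sum was Camp (219.9) and Ngp (219.4). The 6 mesothelial and stromal markers summed to 660.0 and 1954 on knockout-labelled arrays and to between 228.5 and 572.4 on the other 4. Col1a1 and Col3a1 were most of that sum on every array. Msln, Upk3b, Wt1 and Krt19 read 58.0 at the most, so the sum says little of mesothelial cells.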
